A study of Homo sapiens with 3 samples.

Results

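The small subunit of the cytoplasmic ribosome is built from ribosomal RNA and a set of ribosomal proteins, and 28 genes of those proteins are described here: RPSA, RPS2, RPS3, RPS3A, RPS4X, RPS6, RPS7, RPS9, RPS10, RPS12, RPS13, RPS14, RPS15, RPS15A, RPS16, RPS18, RPS19, RPS20, RPS21, RPS23, RPS24, RPS25, RPS26, RPS27, RPS27A, RPS28, RPS29 and FAU. Pseudogenes and the RPS6 kinases were left out. A peak was counted for a gene when its name carried the Ensembl gene ID tied to that gene by position. Such an ID was found for 27 of the 28 genes, of 6583 gene IDs with a peak in all, and no peak lay in RPS28. The peaks came from easyCLIP, in which UV light bonds RNA to a protein in living cells and the bonded fragments are recovered with the protein and sequenced. All 3 replicates formed 1 group: wild-type HEK293T cells, a transformed line from human embryonic kidney, given 750 ng of a vector that expresses HNRNPA0 with an HA tag, irradiated at 254 nm with 0.3 J/cm2 and precipitated with anti-HA beads. The replicates were pooled after the first adapter had been ligated and were handled together from then on, and whether they came from separate cultures is not stated, so the spread between them may be partly technical. The protein was expressed from a vector, so its level need not match that of untransfected cells. No library without HNRNPA0 and no measure of RNA level was used here, so binding, transcript abundance and background recovery cannot be told apart for any value below.

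Messenger RNAs of ribosomal proteins are among the most abundant in growing cells. Most of them start with a terminal oligopyrimidine (TOP) tract, a C followed by a run of C and U, through which the mTOR pathway controls their translation. Many of the genes also carry small nucleolar RNAs (snoRNAs) in their introns, which are cut out of the precursor and guide methylation or pseudouridylation of other RNAs. HNRNPA0 belongs to the hnRNP A/B proteins, which bind RNA, and is known from work on AU-rich messenger RNAs.

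The starts of the transcripts are shown because the TOP tract is the sequence the genes are best known to share, and the peaks could be set against it. Each line gives 10 bases before and 20 bases from the RefSeq start (GRCh38.p14), 5′ to 3′, with the unbroken run of C and T from the first transcribed base in capitals. The genes are those with the highest peaks that have an entry in the table used.
RPS3 (chr11:75399508-75399537, plus strand): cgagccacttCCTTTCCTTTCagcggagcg
RPS4X (chrX:72277229-72277258, minus strand): ctccagccccaatttctacgcgcaccggaa
RPS24 (chr10:78033853-78033882, plus strand): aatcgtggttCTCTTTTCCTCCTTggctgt
RPS18 (chr6:33272065-33272094, plus strand): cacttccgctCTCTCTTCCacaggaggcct
RPS6 (chr9:19380217-19380246, minus strand): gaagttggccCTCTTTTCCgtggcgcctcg
RPS12 (chr6:132814559-132814588, plus strand): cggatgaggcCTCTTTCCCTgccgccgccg
RPS3A (chr4:151099618-151099647, plus strand): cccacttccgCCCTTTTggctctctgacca

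Of 25 genes with an entry, 19 had a start with a C that opened a run of at least 4 pyrimidines, read on the transcribed strand, or 76.0%, against 6.84% of the 27305 genes in the table. RPS4X, which starts with A at its listed position, was among the 6 that did not. Over all replicates, 2 of the 235 peaks outside the snoRNAs overlapped the first 50 nt of a gene, or 0.851%, against 0.610% of the peaks in protein-coding genes in the length range of the 28 genes. They were 1 of RPS20 in replicate 2 with a read number of 4 and 1 of RPS16 in replicate 3 with a read number of 6. The read number is the whole number that ends the name of each deposited peak, taken as the reads in the peak, and the lowest value in the lists was 3. Letters under the other peaks are not shown, since no genome sequence was used here.

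HNRNPA0 peaks lay in 27 of the 28 genes, while 5681 of all 20039 protein-coding genes had a peak. In 14 of the genes, peaks of all 3 replicates joined into a shared region, as defined below. Outside the snoRNAs, 83, 71 and 81 peaks lay in the genes in replicates 1, 2 and 3, with summed read numbers of 568, 465 and 516. These sums came to 0.496% ± 0.0626 of the read numbers of all nuclear-encoded peaks (SD, n = 3), which totalled 100038, 99141 and 114203. A peak was present in all 3 replicates in 20 genes, in 2 replicates in 5 genes (RPS21, RPS25, RPS26, RPS29 and FAU) and in 1 replicate in RPS20 and RPS27. Of all protein-coding genes with a peak, 50.8% had one in all 3 replicates. The 27 genes with a peak had a median of 8 peaks over the replicates, against 4 for all protein-coding genes with a peak.

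Peaks of the replicates that overlapped by 1 bp or more were merged into regions. The genes held 142 regions outside the snoRNAs, of which 90 were seen in 1 replicate, 23 in 2 and 29 in every replicate. The last were 28 to 182 nt wide, with a median of 98 nt. Those 29 lay in 14 genes: RPS2, RPS3, RPS3A, RPS4X, RPS6, RPS7, RPS9, RPS10, RPS14, RPS16, RPS18, RPS23, RPS24 and RPS27A. Over all protein-coding genes with a peak, 21.4% held a region in all 3 replicates, and over all protein-coding genes 6.07% did. Among those with a peak in the length range of the 28 genes, the share was 23.4%. With an overlap of 50% of both peaks required, 10 regions in 6 of the 28 genes were left, and among the 50% of peaks with the lowest p-values in each replicate 21 regions in 8 genes were. The shares over protein-coding genes were taken from the full lists with an overlap of 1 bp or more. They cannot be set against the counts under these stricter rules.

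**Figure D1:**
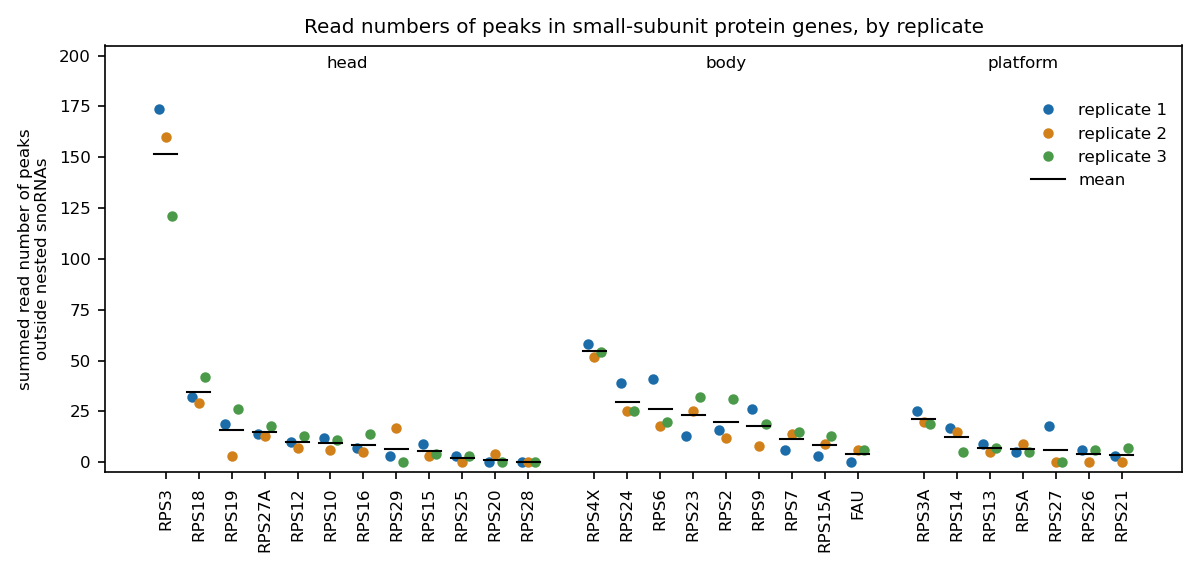
Summed read number of the peaks outside nested snoRNAs (vertical axis, linear) for each of the 28 genes in each replicate, with points for the 3 replicates and a short line for their mean, grouped by where the protein sits in the small subunit. RPS3 stands at 121 to 174, and RPS4X, the next, at 52 to 58.

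RPS3 encodes a protein of the head of the subunit that lines the entry of the messenger RNA channel, and it held the highest peaks of the set. Its summed read numbers were 174, 160 and 121 in replicates 1, 2 and 3, which was 29.5% ± 5.57 of the sum over all 28 genes (SD, n = 3). The 3 values overlap with those of no other gene of the set. Its highest peak had a read number of 28, 30 and 23, or 27.0 ± 3.61 (SD, n = 3). Without RPS3 the genes took 0.349% ± 0.0432 of the nuclear-encoded read numbers (SD, n = 3).

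All 6 regions of RPS3 found in the 3 replicates began within 6096 nt of its 5′ end, although the RefSeq interval, on the plus strand of chromosome 11 from 75399518 to 75422302, spans 22785 nt. From the 5′ end, the region at 75400694 to 75400825 had highest read numbers of 14, 19 and 16. The region at 75401640 to 75401736 had 17, 30 and 16, and that at 75402351 to 75402448 had 28, 28 and 16. Replicate 2 was the highest at 75401640, and replicate 3 was the lowest at 75402351. Next came 75404020 to 75404083 with 22, 19 and 8, then 75404702 to 75404869 with 21, 19 and 23, and last 75405614 to 75405641 with 12, 8 and 10. The last of these, 28 nt wide, was the shortest of the 29 regions. RPS3 also accounted for 6 of the 11 regions of the set whose mean highest read number was 10 or more.

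**Figure D2:**
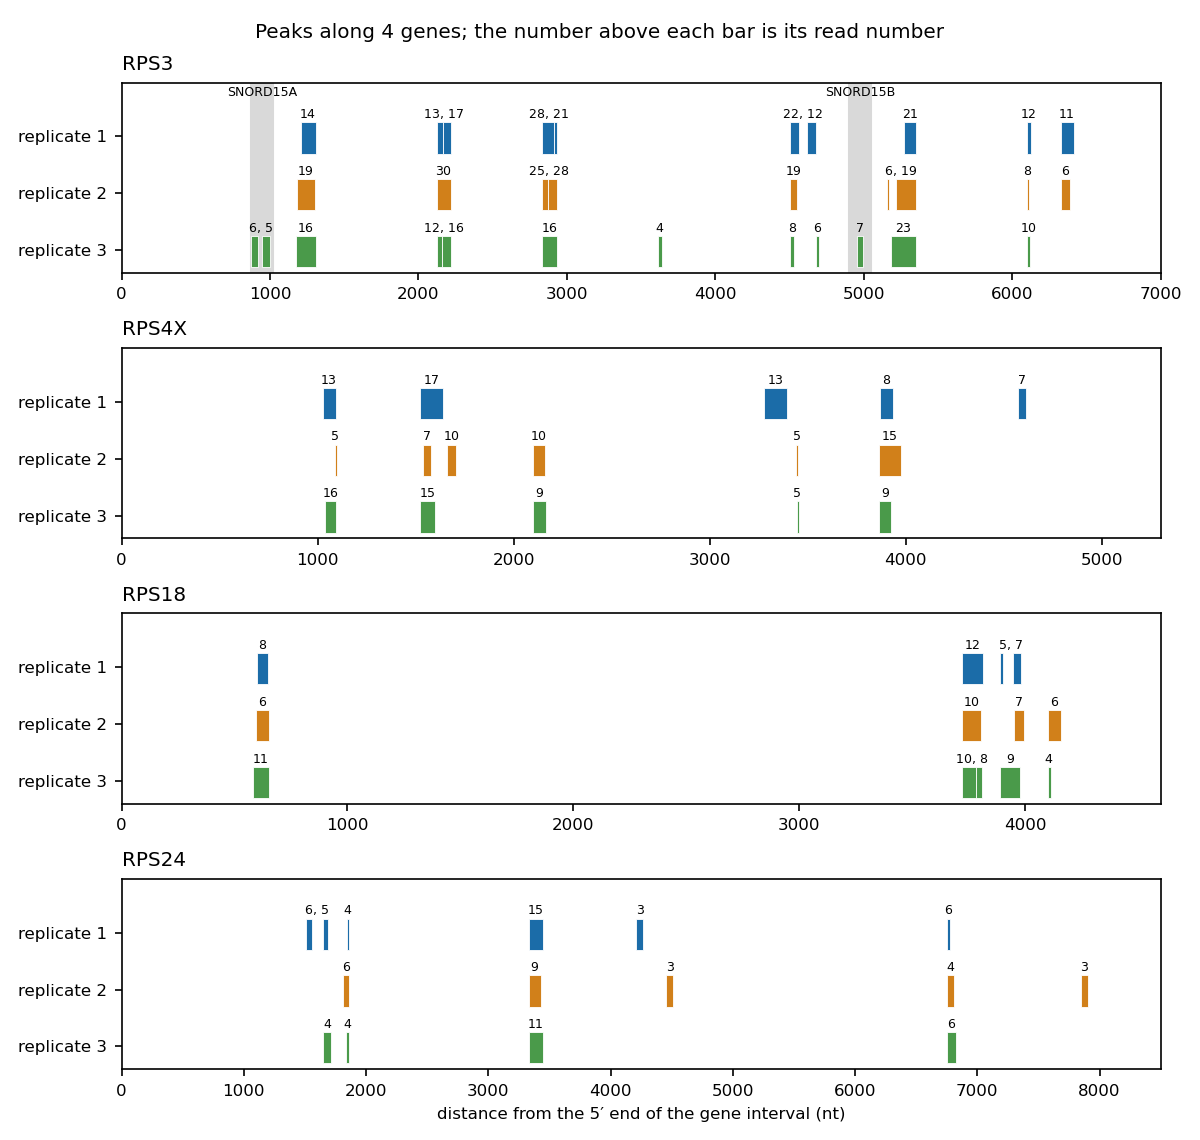
Peaks of each replicate along RPS3, RPS4X, RPS18 and RPS24, as bars against the distance from the 5′ end of the gene interval in nt, with the read numbers above the bars and, for RPS3, the intervals of SNORD15A and SNORD15B in grey. RPS3 and RPS24 are drawn over the part next to their 5′ end, and the bars of the 3 replicates stand above each other at the 6 regions of RPS3.

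The other genes of head proteins had lower values, and 4 of the 11 held a region in all 3 replicates. RPS18, whose protein lies at the contact with the large subunit, had summed read numbers of 32, 29 and 42. Its strongest region, at 33275796 to 33275885 of chromosome 6, had read numbers of 12, 10 and 10, and a second, at 33275965 to 33276068, had 7, 7 and 9. Both lay in the last part of the gene, 626 and 443 nt from its end, while the third lay 581 nt from its start, at 33272656 to 33272727, with 8, 6 and 11. No peak of RPS18 fell between the first region and the other 2 in any replicate.

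RPS27A, which is made as a fusion to ubiquitin, held 2 regions at low values. The region at 55235422 to 55235517 of chromosome 2 had read numbers of 4, 5 and 5, and that at 55234931 to 55234963 had 3, 5 and 5. RPS16, whose tail reaches towards the transfer RNA in the subunit's P site, held 1 region 113 nt from its 3′ end, at 39433250 to 39433419 of chromosome 19, with 4, 5 and 5. RPS10, a protein modified with ubiquitin when ribosomes collide, held 1 at 34424669 to 34424759 of chromosome 6, with 3, 3 and 5. These values lie at or just above the lowest read number in the lists, and replicate 3 was not lower than the others in any of the 4 regions.

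RPS19, the gene most often mutated in Diamond-Blackfan anaemia, had peaks in each replicate but no region in all 3. Its highest read numbers were 6, 3 and 7, with 4, 1 and 6 peaks. The low value came from replicate 2, whose peak overlapped none of the others, while replicates 1 and 3 shared 3 regions. In 1 of these regions the peaks of both replicates began on the base after MIR6797, a microRNA gene whose hairpin ends inside RPS19, as shown further below. RPS12, a head protein, had highest read numbers of 10, 7 and 13 outside its snoRNAs, with a single peak per replicate. Replicates 1 and 2 shared their place, at 132816971 to 132817038 of chromosome 6, and the peak of replicate 3 lay elsewhere. Of the remaining head genes, RPS15 had highest values of 5, 3 and 4, RPS25, which takes part in initiation at viral internal entry sites, 3, 0 and 3, and RPS29 3, 5 and 0. RPS20 had 0, 4 and 0, and RPS28, near the exit of the messenger RNA channel, had no peak in any replicate, where 0 means only that no peak was called.

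Body proteins were the group with most genes holding a region, 7 of 9, against 5 of 12 for the head and 2 of 7 for the platform. Among all protein-coding genes with a peak in the length range of the set, the share was 23.4%. As group totals, other measures did not put the body first: body and head held 13 regions each. The mean summed read number was 195 in the body and 261 in the head. These totals cover 9 and 12 genes, and RPS3 alone held 6 of the head's regions and 152 of its mean summed read number. The groups are small, and their differences were not tested. RPS4X, an X-linked gene of a protein that binds ribosomal RNA, came next to RPS3 in the set, with summed read numbers of 58, 52 and 54. Its 3 regions were at 72276157 to 72276222, 72275608 to 72275725 and 72273275 to 72273384 of chromosome X, on the minus strand. In 5′ to 3′ order they had read numbers of 13, 5 and 16, of 17, 7 and 15, and of 8, 15 and 9. Replicate 2 was the lowest in the first 2 and the highest in the third, so the replicates agreed on the sum more closely than on its distribution. The highest peak of the gene was 17, 15 and 16.

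RPS24, another Diamond-Blackfan anaemia gene, had summed read numbers of 39, 25 and 25. Its strongest region, at 78037194 to 78037313 of chromosome 10, had 15, 9 and 11, and the other 2, at 78035674 to 78035721 and 78040615 to 78040685, had 4, 6 and 4, and 6, 4 and 6. The higher sum of replicate 1 came partly from the strongest region and partly from places not shared by all replicates, among them 78035370 to 78035417 with 6, 0 and 0. As in RPS3, the regions lay near the 5′ end of a long interval of 22944 nt, the farthest starting 6752 nt from its start.

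RPS6, the substrate of the S6 kinases downstream of mTOR, had summed read numbers of 41, 18 and 20, and replicate 1 was high through 6 peaks against 2 and 4. Its region at 19378368 to 19378499 of chromosome 9 had read numbers of 11, 12 and 5, and that at 19376544 to 19376652 had 12, 6 and 5. RPS23, which lies at the decoding centre, had sums of 13, 25 and 32 over 3, 6 and 5 peaks, yet only 1 region in all 3, at 82276410 to 82276519 of chromosome 5, with 4, 5 and 6. Most of its peaks were thus at places seen in 1 replicate.

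RPS2, at the entry of the messenger RNA channel, had sums of 16, 12 and 31 outside its snoRNAs and 1 region, at 1962580 to 1962659 of chromosome 16, with 7, 4 and 9. RPS9, one of the first proteins to bind the ribosomal RNA, had sums of 26, 8 and 19. Its region at 54207396 to 54207577 of chromosome 19, 70 nt from the 3′ end, had 4, 5 and 6, and that at 54201487 to 54201610 had 6, 3 and 5. The region of RPS7, at 3580105 to 3580265 of chromosome 2, had 3, 4 and 4. With a base covered by all 3 replicates required, which was tried only once the data had been seen, 28 of the 29 regions in 13 of the 14 genes were left, and RPS7 was the gene lost. RPS15A had highest values of 3, 3 and 7 and FAU, made as a fusion to a ubiquitin-like protein, 0, 3 and 3, without a region in all 3.

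Among the platform genes, RPS3A and RPS14 held regions. Both regions of RPS3A lay close to its 3′ end on chromosome 4, 354 and 119 nt away: 151104203 to 151104288 had read numbers of 9, 9 and 11, and 151104472 to 151104523 had 7, 6 and 8. The SDs over the replicates were 1.15 and 1.00, and in both regions replicate 3 was the highest. RPS14, whose protein helps shape the platform near the mRNA exit, held 1 region, at 150446801 to 150446911 of chromosome 5, with 7, 3 and 5. RPSA, also known as the laminin receptor precursor, had highest values of 5, 5 and 5 outside its snoRNAs, and RPS13 of 5, 5 and 4. RPS21 had 3, 0 and 4, and RPS26, which contacts the messenger RNA at the exit, 3, 0 and 3. RPS27, a zinc-binding protein, had 5 peaks in replicate 1, the highest with a read number of 6, and none in replicates 2 and 3.

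Because the gene intervals run from 1394 nt in RPS27 to 27723 nt in RPS29, the order of the genes changed when read numbers were set against length. Per 1000 nt of gene interval, introns included, RPS4X came first with a summed read number of 10.5 ± 0.587, followed by RPS18 with 7.74 ± 1.53, RPS2 with 7.10 ± 3.62, RPS3 with 6.66 ± 1.21 and RPS6 with 5.82 ± 2.82 (SD, n = 3). RPS18, RPS2, RPS3 and RPS6 lie within each other's spread on this scale, and the spread of RPS2 reaches that of RPS4X. RPS24 fell to 1.29 ± 0.352 (SD, n = 3). The intervals of RPS3 and RPS24 reach far past their regions, so their values and ranks on this scale depend on where the interval ends. Across the 28 genes, which share the 3 libraries, the Spearman correlation of gene length with mean summed read number was 0.469. Between replicates, the correlations of the summed read numbers across the 28 genes were 0.613 for replicates 1 and 2, 0.745 for 1 and 3 and 0.685 for 2 and 3. They are descriptions, since the genes are not independent replicates.

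At read numbers of 4 to 9, a larger share of the peaks in these genes than of all nuclear-encoded peaks was found again in both other replicates, while the share of peaks with high read numbers stood above that of all nuclear-encoded peaks through RPS3. A read number of 10 or more was seen in 17.7% ± 3.43 of the peaks in the genes and 10.7% ± 0.868 of all nuclear-encoded peaks, and a read number of 3 in 27.8% ± 4.83 and 43.7% ± 1.76 (SD, n = 3). Of peaks with a read number of 5 to 9, 47.9% ± 9.0 in the genes lay in a region of all 3 replicates, against 22.4% ± 0.295 of all nuclear-encoded peaks (SD, n = 3). Of those with 4, the shares were 32.1% ± 8.52 and 8.50% ± 0.827, and the 3 replicates of the 2 groups did not overlap in either class. At 10 or more they were 84.0% ± 7.50 and 66.7% ± 1.22, again without overlap, and at 3 they were 9.88% ± 8.64 and 3.52% ± 0.398, where replicate 3 had none of its peaks in such a region (SD, n = 3). The class of 10 or more held 42 peaks of these genes, of which 22 lay in RPS3. Without RPS3, peaks with 10 or more were 9.77% ± 1.56 of the peaks in the genes, and 73.6% ± 12.9 of them lay in a region of all 3 replicates, overlapping with the values of all nuclear-encoded peaks (SD, n = 3). Without it the shares for 4 and for 5 to 9 were 33.5% ± 6.37 and 48.9% ± 10.8 (SD, n = 3). No test was made of these differences.

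**Figure D3:**
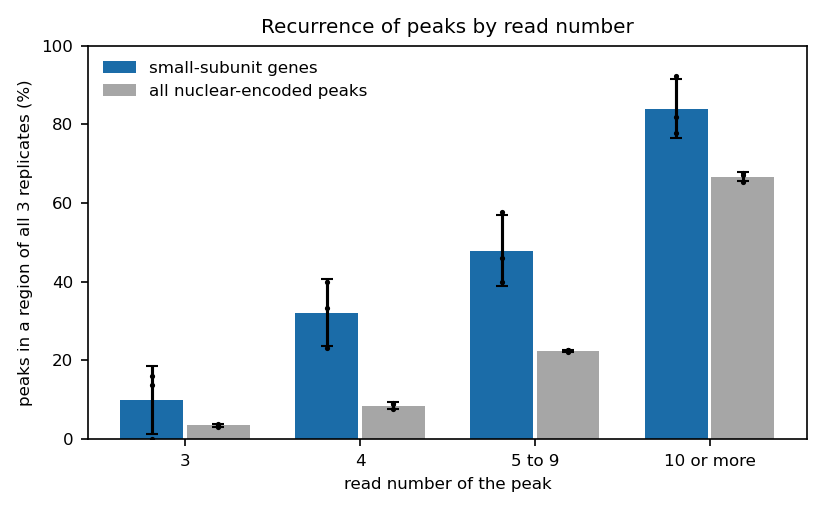
Share of peaks (vertical axis, percent) that lie in a region found in all 3 replicates, by read number of the peak (horizontal axis), for the 28 genes and for all nuclear-encoded peaks, with bars for the mean, error bars for the SD and dots for the 3 replicates. The bars of the 28 genes reach 32.1%, 47.9% and 84.0% in the classes of 4, of 5 to 9 and of 10 or more, above 8.50%, 22.4% and 66.7%, and 22 of the 42 peaks in the last class lie in RPS3.

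Regions in these genes often began or ended on exactly the same base in every replicate. Of the 29 regions in all 3 replicates, 6 had the same 5′ edge in the 3 lists and 4 the same 3′ edge, 10 or 34.5% in all, against 152 or 6.50% of the 2337 nuclear-encoded regions. The 5′ edges were at 75401640, 75404020 and 75405614 in RPS3, 78037194 and 78040615 in RPS24, and 151104472 in RPS3A. The 3′ edges were at 75404869 in RPS3, 78035721 in RPS24, 72276157 in RPS4X and 19378368 in RPS6. The share was 33.3% of 63 regions in a list of other TOP messenger RNAs, such as EEF1A1 and TPT1, and 19.0% of 42 in genes of the large subunit. Without RPS3 it was 26.1% of 23 regions. These shares were compared after the shared edges had been noticed and were not tested.

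No sequence could be shown at the edges listed above. At 1 other edge, shared by replicates 1 and 3 alone, the sequence on the other side could be shown. In RPS19, peaks of replicates 1 and 3 both began at 41869699 of chromosome 19, with read numbers of 3 and 4, and MIR6797 ends at 41869698. The hairpin of MIR6797 is given 5′ to 3′ from RefSeq (GRCh38.p14, chr19:41869627-41869698, plus strand), with its last 2 bases, AG, in capitals because they directly precede the peaks.
MIR6797 hairpin: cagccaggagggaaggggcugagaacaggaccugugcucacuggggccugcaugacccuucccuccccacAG
AG is the dinucleotide that closes introns in general. Exon positions were not used here, so how many of the shared edges lie at exon ends was not tested.

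With all 28 genes taken, the share of peak centres next to the 3′ end was lower than in protein-coding genes in the same range of lengths. The shares overlapped when only genes under 10000 nt were compared on both sides. In the last 20% of the gene lay 26.9% ± 1.16 of the peaks, and in the first 20% lay 25.3% ± 3.93 (SD, n = 3). Protein-coding genes in the same range of lengths had 42.1% ± 1.58 and 10.8% ± 0.895 there (SD, n = 3). Lengths were not matched within that range, and the comparison genes include the 28. RPS3, RPS19, RPS24 and RPS29 have intervals of 10000 nt or more, and those of RPS3 and RPS24 reach far past their regions. With RPS3 and RPS24 left out because of those intervals, the last 20% held 33.6% ± 1.41 and the first 16.8% ± 3.97 (SD, n = 3). In the genes under 10000 nt, a limit set after the values were known, the last 20% held 34.4% ± 1.44 and the first 17.3% ± 3.18, against 32.8% ± 1.38 and 12.7% ± 0.958 in all protein-coding genes of that size (SD, n = 3). In the last 20% the replicates of the 2 groups overlapped.

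**Figure D4:**
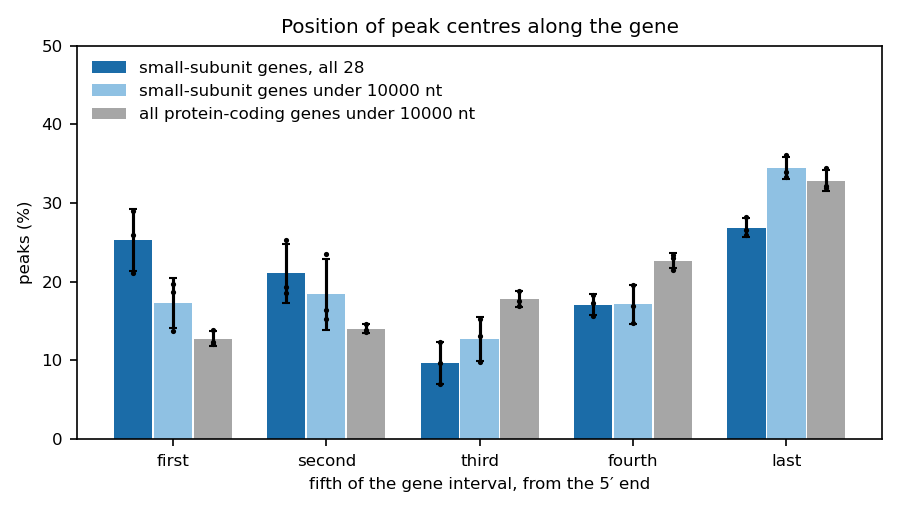
Share of peak centres (vertical axis, percent) in each 20% of the gene interval from the 5′ end, for all 28 genes, for those under 10000 nt and for all protein-coding genes under 10000 nt, with bars for the mean, error bars for the SD and dots for the 3 replicates. In the last 20% the bars stand at 26.9%, 34.4% and 32.8%.

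Peaks at nested snoRNAs formed a separate part of the signal. RefSeq places 14 snoRNAs inside 7 of the genes, and a peak with its centre in such an interval was counted for the snoRNA. Those peaks held 14.1% ± 1.67 of the summed read numbers under the gene IDs of the set (SD, n = 3), at 10 snoRNAs, of which 5 had a region in all 3 replicates. In the list of large-subunit genes the share was 12.2% ± 4.52 (SD, n = 3).

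RPSA was mainly a snoRNA host in these lists. At its 2 snoRNAs the summed read numbers were 41, 42 and 48, against 5, 9 and 5 in the rest of the gene, so that 87.3% ± 4.39 lay at the snoRNAs (SD, n = 3). SNORA62, an H/ACA snoRNA of 154 nt, the class that guides pseudouridylation, had highest read numbers of 26, 20 and 35, or 27.0 ± 7.55 (SD, n = 3). That equals the mean of the highest peak of RPS3. The stretch under its peaks began within 1 nt of the first base of the snoRNA, at 39411054 of chromosome 3, in every replicate, and in replicates 1, 2 and 3 covered 84.4%, 83.1% and 82.5% of it. SNORA6, of the same class, had 15, 8 and 13.

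**Figure D5:**
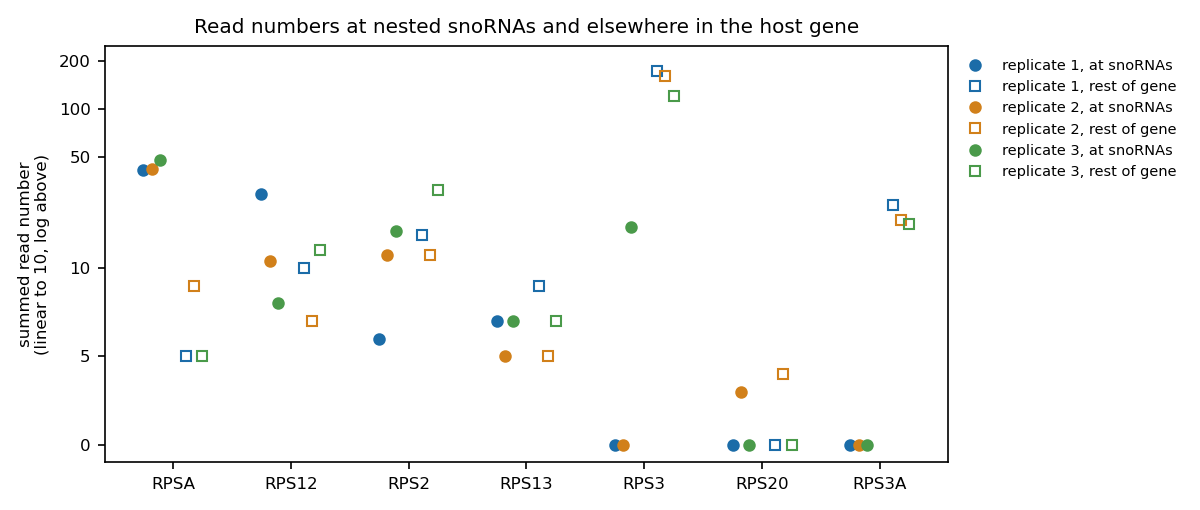
Summed read numbers at nested snoRNAs (filled circles) and in the rest of the gene (open squares) for the 7 host genes in each replicate, on a vertical axis that is linear up to 10 and logarithmic above. In RPSA the circles, at 41 to 48, stand above the squares, at 5 to 9, while in RPS3 the squares stand above the circles.

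RPS12, RPS13 and RPS2 also held snoRNA regions in all 3 replicates. SNORD14B in RPS13, a C/D snoRNA, the class that guides ribose methylation, had read numbers of 7, 5 and 7, and its peaks covered 100% of the snoRNA in replicates 1 and 3 and 98.9% in replicate 2. SNORA33 in RPS12 had 5, 4 and 8, and SNORA64 in RPS2 had 6, 8 and 7. Coverage was partial for both, at most 60.2% of SNORA33 and between 17.9% and 95.5% of SNORA64. SNORD100 in RPS12 had 12, 7 and no peak, and SNORA10 in RPS2 had no peak, 4 and 10. SNORD15A and SNORD15B in RPS3 had a peak in replicate 3 alone, with highest read numbers of 6 and 7, and SNORD54 in RPS20 had 1 in replicate 2 with 3. No peak was counted at SNORD14A, SNORD73A, SNORD73B or SNORD101. Had snoRNA peaks been counted for the hosts, 17 genes with 34 regions would hold one in all 3 replicates, RPSA, RPS12 and RPS13 being the 3 added.

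Genes of related lists also had peaks. RACK1, a scaffold protein of the head outside the set, held 8 regions with highest read numbers of 16, 13 and 12. Of 47 large-subunit genes, 47 had a peak and 19, or 40.4%, a region in all 3 replicates, against 14, or 50.0%, of the 28 genes. The mean summed read number per gene was 21.0 ± 2.45 in the large and 18.4 ± 1.84 in the small subunit (SD, n = 3), and it was higher in the small subunit in 1 of 3 replicates (difference of -2.56 ± 2.72, two-sided exact permutation test by sign flips, p = 0.5, where 3 replicates allow no p below 0.25). Of 16 other TOP messenger RNAs, all with a peak, 13 held a region. Of 16 assembly factors of the small subunit, 8 had a peak and 3 held a region: HEATR1, TSR1 and WDR3. Over all protein-coding genes the share with a region in all 3 replicates was 6.07%, and over those with a peak it was 21.4%.

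As to the libraries as a whole, HNRNPA0 itself had highest read numbers of 112, 64 and 110, and the lists do not separate its vector from its gene. Of 5 markers listed as present in HEK293T cells, VIM held 3 regions, NEFM had highest read numbers of 3, 6 and 3, and KRT8, KRT18 and NEFL had no peak, while 0 of 7 markers of liver, muscle and blood had one. Of all 20039 protein-coding genes, 5681 had a peak. Peaks depend on binding as well as on RNA level, and the markers are few, so their counts are a weak check of the cell line label.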

How the data were processed

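The 3 peak lists, 1 per replicate and so called per sample, were used as deposited. The p-value of each peak was that of the authors' peak caller, with no adjustment stated and all values under 0.05. Per the submitters' processing notes, the genome build was hg38 and the tools included bedtools and deepTools, for which no version is listed. How reads were aligned, how peaks were called, whether molecular identifiers were used and how reads matching several places were treated is not given in the sources used here. The last matters because RefSeq lists 656 pseudogenes named for these 28 genes. The p-value of a comparison over replicates measures only the spread between these samples.

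A gene ID was tied to a protein-coding RefSeq gene (GRCh38.p14) that contained at least 90% of its peak centres on the same strand, where the table gave one. IDs with all peaks in a small RNA and readthrough genes were left out. Identical lines under several IDs were counted once in totals. Neighbouring peaks can touch and may share reads, so summed read numbers are descriptions without counting intervals. Depth is known only as read numbers in peaks. Region merging was tested on simulated peaks of equal width set far apart. That checks the code, and not how merging deals with the uneven, close peaks of these lists. The 28 genes, the lists and their grouping into head, body and platform were chosen with earlier results of these data known. By the naming rule, every gene is accounted for, and values are given for each one with a region in all 3 replicates. The planned search for motifs and the printing of stretches inside peaks could not be done, since the files hold positions and no letters. Python 3.11.15, pandas 2.3.3, numpy 2.4.6, scipy 1.17.1 and matplotlib 3.10.9 were used. Alternatives were the stricter 50% of each list, other definitions of a region, each replicate left out, and snoRNA peaks counted for the host. Some genes of the pathway are not reported here.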

Additional observations from a re-analysis of the deposited data

Results flagged for a closer look

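Pseudogenes named for the 28 genes, which the comparisons do not use, held 2 peaks in all, both in replicate 3, so that the summed read number was 0, 0 and 10, or 3.33 on average (SD 5.77, n = 3). They lay in RPS2P5 on chromosome 12, with a read number of 7, and in RPS2P46 on chromosome 17, with 3, of 656 such pseudogenes. This is listed because it is signal outside the genes described, with no control library to set it against. Across the 28 genes, the Spearman correlation of the number of pseudogenes with the mean summed read number was -0.0204.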

How the results depend on the processing

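The number of genes with a peak ranged from 23 to 27 over the alternatives run, and with each replicate left out from 26 to 27. Genes with a region in all 3 replicates came to 8 in the stricter 50% of each list and to 6 when peaks had to share 50% of both widths, and regions to 10 under that rule and to 52 when 2 replicates sufficed. No share over all protein-coding genes is given for these alternatives. With each replicate left out, 16 to 17 genes and 35 to 37 regions were counted, since a region then needed 2 lists. The share of nuclear-encoded read numbers was 0.577% with snoRNA peaks counted for the hosts and 0.349% without RPS3, and 0.460% to 0.518% with each replicate left out. The share of peaks in the last 20% of the gene was 25.4% in the stricter 50% of each list, 24.2% when read numbers under 5 were left out and 34.4% for genes under 10000 nt. The cause of the first 2 was not tested. The snoRNA share stayed within 1 SD under each alternative run for it. The settings without RPS3, with a base covered in all 3 replicates, with any overlap with a snoRNA and with genes under 10000 nt, and the shares of recurring peaks and shared edges without RPS3, were chosen after seeing the data. Of the highest read numbers of the 14 genes with a region, those of RPS7, RPS16 and RPS27A moved by more than 1 SD in the stricter 50% of each list, to means of 1.67, 3.67 and 3.33. The planned motif share was not run, as no genome was used here. No paired analysis between conditions was possible because there is 1 group, and the only test compared the 2 subunits within each replicate. Low read numbers limit the precision: the median peak of these genes had a read number of 5.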
